A study of Homo sapiens with 6 samples.

Results

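The keratins are the intermediate filament proteins of epithelial cells, and they were taken here as every gene of the deposited count table whose symbol is KRT followed by a number and at most 1 letter from A to C. Chosen by this rule on symbols, they numbered 43 of the 17100 genes in the table, with 20 of type I and 23 of type II. RNA was sequenced from MDA-MB-231, an established human breast adenocarcinoma cell line that is widely used as a model of triple-negative, mesenchymal-like breast cancer. The vehicle group held 3 libraries. The guadecitabine group held 3 libraries from cells kept for 96 h in 1 µM guadecitabine (SGI-110), a dinucleotide of decitabine that inhibits DNA methyltransferases, and then for 24 h without the drug. The methods name 3 independent experiments, and all libraries come from this 1 cell line, which limits the data as a model of breast cancer.

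Keratin filaments are obligate heteropolymers, built from pairs of 1 type I (acidic) and 1 type II (basic) chain, and the genes of each type lie together in a cluster, apart from the type I gene KRT18, which lies beside KRT8 among the type II genes. Simple epithelia and glands make KRT8 and KRT18 with KRT7 and KRT19, whereas the basal layer of stratified epithelia makes KRT5 with KRT14 and KRT15, stressed or proliferating keratinocytes make KRT6, KRT16 and KRT17, differentiating layers make pairs such as KRT1 with KRT10, and hair makes a set of its own. In pathology, luminal keratins (KRT8, KRT18, KRT19) and basal keratins (KRT5, KRT14, KRT17) are used to sort breast cancers.

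The vehicle libraries held between 17602570 and 22277442 counts each, and the guadecitabine libraries between 8792127 and 21410849, so that single low counts weigh most in guadecitabine replicate 2. Vehicle replicate 3 stood apart, with 20 genes of the table at 0 counts against 1593 to 2517 genes in the other 5 libraries, and results on weakly expressed keratins are therefore given with and without it. The cell line's own markers were checked as well. VIM, for vimentin, had a mean level of 37619 ± 609 normalized counts per kb (SD, n = 3) in vehicle, whereas ESR1 and PGR, the hormone receptor genes, had 0 or 1 count in every library but vehicle replicate 3, which held 67 and 43 counts. CDH1, the E-cadherin gene, was low at 38, 25 and 87 counts in vehicle and 20, 6 and 13 counts in guadecitabine. Of the 7 such markers tested, VIM (log2 fold change 0.33) and CD44 (1.18) were called higher, CDH1 (-1.62), AXL (-1.27), ERBB2 (-0.74) and EPCAM (-0.68) lower, and EGFR (0.25) neither.

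Guadecitabine was accompanied by lower expression of 3 of the 4 simple epithelial keratins and of KRT80 and KRT6B, and by higher expression of KRT17, KRT15 and KRT34. By the quasi-likelihood test of edgeR, with p-values adjusted after Benjamini and Hochberg, 18 keratins had enough counts to be tested, and 3 were called higher, 5 lower and 10 neither at an adjusted p under 0.05. Of all 13322 genes tested, 37.7% were called, 19.3% higher and 18.4% lower, and the keratins' median log2 fold change of -0.18 stood beside 0.02 for all genes. By type, 3 of 8 type I keratins tested were called higher and 1 lower with a median log2 fold change of 0.27, whereas 0 of 10 type II keratins were called higher and 4 lower with a median of -0.39. At an unadjusted p under 0.05, 1 type II keratin was higher, KRT79, and the Wald test of DESeq2 called 0 higher and 4 lower. Without vehicle replicate 3, 5 of 19 keratins were called higher and 6 lower, beside 3002 and 2575 of 13296 genes, and all 8 keratins named above were called in the same direction. Split by type, 4 of 9 type I keratins were then called higher and 2 lower, and 1 of 10 type II keratins (KRT79) higher and 4 lower. In RNA from a whole culture, fewer cells of a kind and less RNA per cell cannot be told apart.

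**Figure D1:**
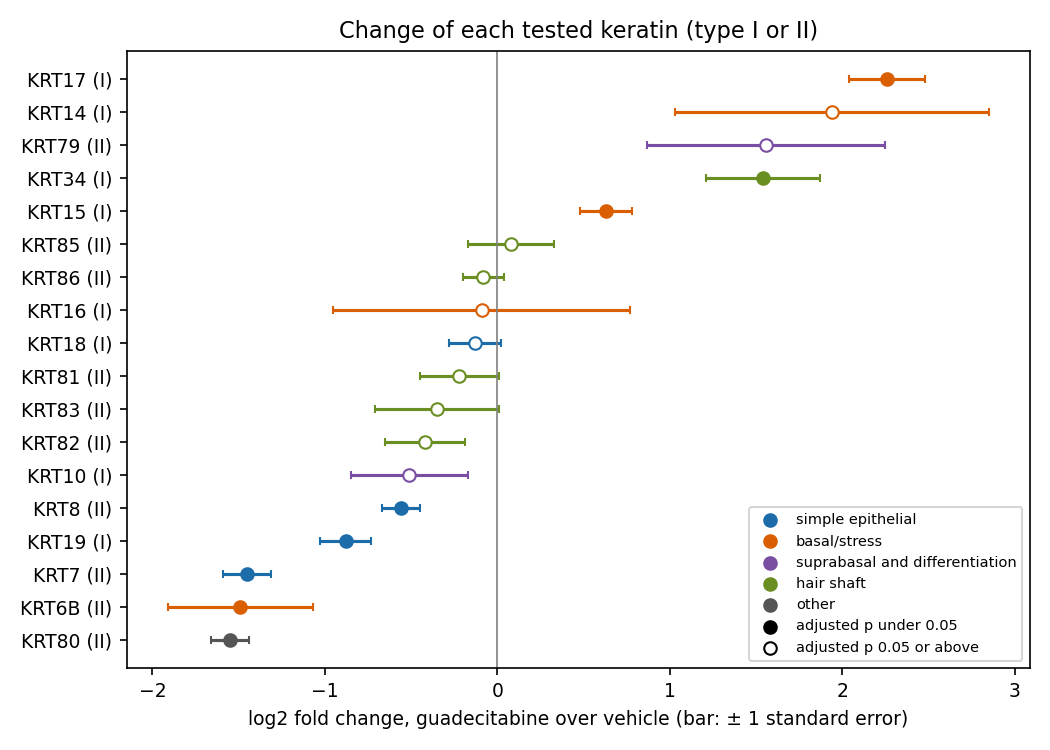
Log2 fold change of guadecitabine against vehicle for each of the 18 keratins tested, ordered by size and coloured by class, with bars for 1 standard error and filled points for keratins called. Values ran from -1.55 for KRT80 to 2.26 for KRT17, and 3 keratins were called higher and 5 lower.

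The simple epithelial keratins were by far the most abundant. On the scale of normalized counts per kb, which divides TMM-normalized counts by the exon length counted and so allows genes to be compared, KRT8 ranked first in vehicle at 11552 ± 819 (SD, n = 3), followed by KRT19 at 11072 ± 1257, KRT18 at 9455 ± 514 and KRT7 at 8792 ± 1067. KRT8 and KRT19 differed by less than either SD, and KRT18 and KRT7 by less than the SD of KRT7. The next keratin, KRT80, lay far below at 1673 ± 127.

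**Figure D2:**
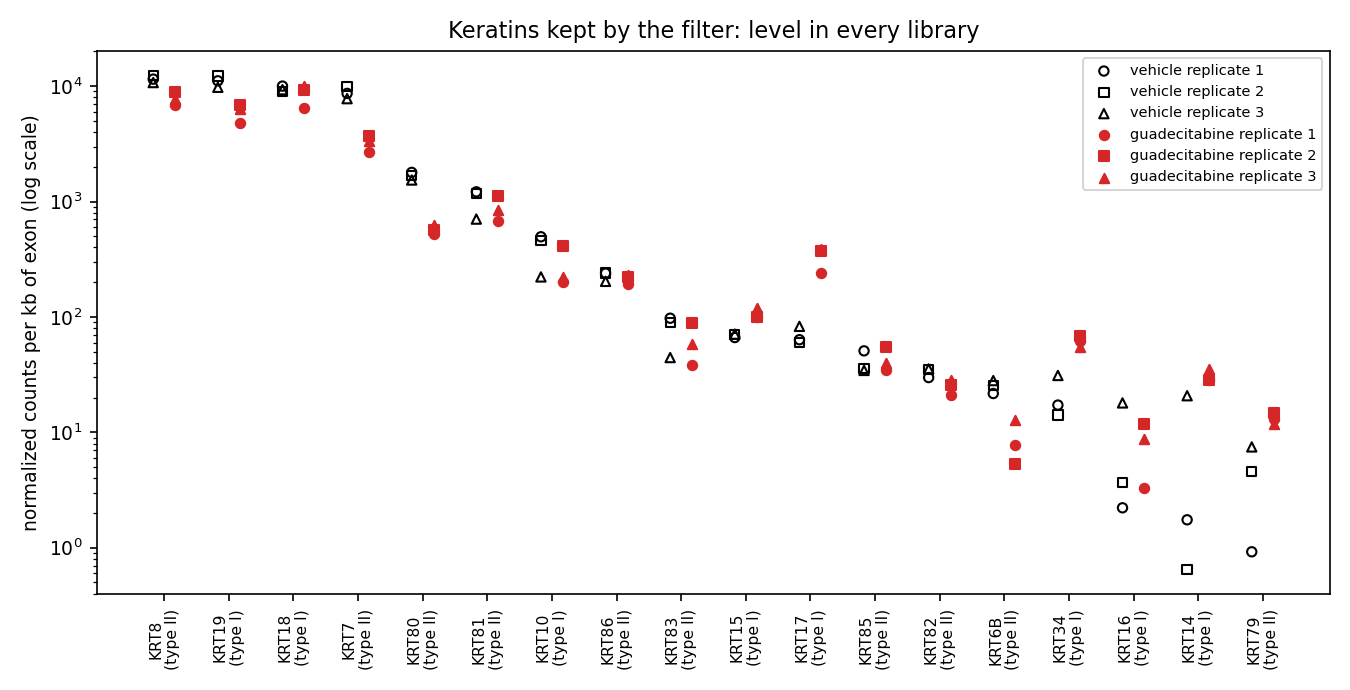
Level of each tested keratin in each of the 6 libraries, in normalized counts per kb on a log axis, with open black points for vehicle, red points for guadecitabine and 1 shape per replicate number. Vehicle means ran from 11552 for KRT8 down to 4.33 for KRT79.

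KRT7, the type II keratin of glandular and ductal epithelia, had 15477, 15987 and 17184 raw counts in vehicle and 5649, 3078 and 5601 counts in guadecitabine. Its level fell from 8792 ± 1067 to 3230 ± 503 normalized counts per kb, 2.72-fold lower, with a log2 fold change of -1.45 (standard error 0.14, edgeR adjusted p = 7.47e-05). Every guadecitabine library lay below every vehicle library. KRT19, a small type I keratin of luminal and progenitor cells, had 17201, 17127 and 18635 counts in vehicle and 8730, 4974 and 9236 counts in guadecitabine. It fell by 0.88 on the log2 scale (standard error 0.15, edgeR adjusted p = 0.00164), again with no overlap.

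KRT8 and KRT18 are the founding pair of simple epithelia and the first keratins made in the embryo. KRT8, the type II partner, had 22864, 22186 and 26328 counts in vehicle and 16119, 8244 and 14462 counts in guadecitabine, and it fell by 0.56 on the log2 scale (standard error 0.11, edgeR adjusted p = 0.00477). The type I partner KRT18 had 13532, 10983 and 15527 counts in vehicle and 10361, 5901 and 12725 counts in guadecitabine, with a log2 fold change of -0.13 (standard error 0.15, edgeR adjusted p = 0.521). The groups overlapped for KRT18 and did not for KRT8. The level ratio of KRT8 to KRT18 was 1.15, 1.37 and 1.15 in vehicle against 1.06, 0.95 and 0.773 in guadecitabine. These 2 groups do not overlap, and an exact two-sided permutation test over the 6 libraries gave p = 0.1, which is the lowest value this design can reach.

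The gene spans counted for KRT8 and KRT18 overlap by 996 bp on chromosome 12, on opposite strands, and whether counting used strand is not given in the sources used here. The GENCODE models nearest in their ends share 135 bp of exon. These models hold 2126 and 1420 bp of exon, against 1891 and 1286 bp counted. Of their 50-base exon stretches, 65.7% in KRT8 and 63.6% in KRT18 occur once in the genome, and both genes have many processed pseudogenes. How reads shared with those copies were counted is not given, so their ratio is uncertain to that extent, whereas KRT7, KRT19 and KRT80 were unique at 99.2%, 99.4% and 99.5%.

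KRT80, a type II keratin found in many epithelia, placed in none of the classes above, had 7256, 6177 and 7686 counts in vehicle and 2513, 1079 and 2382 counts in guadecitabine. It fell 2.92-fold, with a log2 fold change of -1.55 (standard error 0.11, edgeR adjusted p = 1.2e-05), and its 3 guadecitabine libraries lay below all vehicle libraries. KRT80 and KRT7 are neighbours on chromosome 12, with 41169 bp between them, and in hg19 they span chr12:52562780-52585784 on the minus strand and chr12:52626954-52642709 on the plus strand. KRT15 and KRT19 lie even closer on chromosome 17, with 4598 bp between them on the same strand, and went in opposite directions.

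Among the basal, stress and hyperproliferation keratins, 5 of 8 had enough counts to be tested, and 2 were called higher and 1 lower. KRT17, a type I keratin of basal cells, glands and wounds, had 105, 89 and 169 counts in vehicle and 463, 291 and 603 counts in guadecitabine. It rose from 68.7 ± 12.4 to 334 ± 82.9 normalized counts per kb, 4.80-fold, with a log2 fold change of 2.26 (standard error 0.22, edgeR adjusted p = 6.77e-05). All guadecitabine libraries lay above all vehicle libraries, and KRT17 moved from rank 11 to rank 7 among the keratins. Of its 50-base exon stretches 81.8% are unique, and 16.3% also occur outside keratin genes.

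KRT15, a type I keratin of basal and progenitor cells, had 128, 122 and 169 counts in vehicle and 227, 91 and 218 counts in guadecitabine, and the lower count of guadecitabine replicate 2 goes with its smaller library. Its log2 fold change was 0.63 (standard error 0.15, edgeR adjusted p = 0.0107), from 69.1 ± 2.48 to 107 ± 11.2 normalized counts per kb, and the groups do not overlap on that scale. Without guadecitabine replicate 3 it was no longer called, at an adjusted p of 0.0528. KRT6B, a type II keratin of stressed epithelium, had 52, 55 and 83 counts in vehicle and 22, 6 and 29 counts in guadecitabine. It fell by 1.49 on the log2 scale (standard error 0.42, edgeR adjusted p = 0.0208), 2.82-fold lower, and the log2 fold change was -1.37 without vehicle replicate 3. Only 55.7% of its exon stretches are unique, since KRT6A and KRT6C are near copies, and the call was lost without vehicle replicate 2, guadecitabine replicate 1 or guadecitabine replicate 2.

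KRT14, the basal type I partner of KRT5, depended on 1 library. Its counts were 3, 1 and 44 in vehicle and 58, 23 and 57 in guadecitabine, and the log2 fold change was 1.94 (standard error 0.91, edgeR adjusted p = 0.124). All guadecitabine libraries lay above the vehicle libraries even with vehicle replicate 3, in normalized counts per kb. Without that replicate the log2 fold change was 4.57 with an adjusted p of 3.45e-05, and the summed counts were 4 in the 2 vehicle libraries against 138 in guadecitabine, a ratio of 25.4 with an exact 95% counting interval of 9.7 to 94.4. That interval covers counting error only. Of the 50-base exon stretches of KRT14, 71.8% are unique, 21.35% also occur outside keratin genes and 12.6% also occur in KRT16, itself unique at 75.6%. KRT16, the stress-induced type I keratin, had 4, 6 and 40 counts in vehicle and 7, 10 and 15 counts in guadecitabine, and its groups overlapped. Its log2 fold change was -0.09 (edgeR adjusted p = 0.947), and 1.26 (adjusted p = 0.138) without vehicle replicate 3, so the sign turned with that library. KRT5, the type II partner of KRT14, had 1, 0 and 28 counts in vehicle and 9, 3 and 10 counts in guadecitabine, and was not tested.

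Of 13 hair shaft keratins, 6 were tested. KRT34, a type I keratin of the hair cortex, was the only one called, with 31, 23 and 69 counts in vehicle and 131, 57 and 94 counts in guadecitabine. It rose 2.91-fold with a log2 fold change of 1.54 (standard error 0.33, edgeR adjusted p = 0.00633), and the groups do not overlap in normalized counts. Without vehicle replicate 3 its log2 fold change was 1.95. The 5 type II hair keratins tested had log2 fold changes from -0.42 to 0.08 and none was called (0 at an unadjusted p under 0.05 in edgeR, 0 by DESeq2). KRT81, the most abundant of them, had 2436, 2121 and 1744 counts in vehicle and 1600, 1056 and 1615 counts in guadecitabine (log2 fold change -0.22, edgeR adjusted p = 0.484). KRT86, KRT83, KRT85 and KRT82 had log2 fold changes of -0.08, -0.35, 0.08 and -0.42. Without vehicle replicate 3 the values were -0.44 for KRT81, -0.16 for KRT86, -0.66 for KRT83, -0.05 for KRT85 and -0.38 for KRT82. KRT81 and KRT86 are near copies, with 57.3% and 61.9% unique exon stretches, so reads may be split between them.

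The suprabasal and differentiation keratins had 2 of 11 members tested and none called by edgeR or DESeq2, with 1 at an unadjusted p under 0.05. KRT10, which differentiating keratinocytes pair with KRT1, had 1077, 899 and 596 counts in vehicle and 518, 423 and 452 counts in guadecitabine, with overlapping groups in normalized counts and a log2 fold change of -0.51 (edgeR adjusted p = 0.263). Leaving out vehicle replicate 3 gave -0.80 and an adjusted p of 0.0297. KRT79, a type II keratin of skin appendages, had 2, 9 and 20 counts in vehicle and 33, 15 and 24 counts in guadecitabine, with a log2 fold change of 1.56 (adjusted p = 0.105) that was 2.24 (adjusted p = 0.00572) without vehicle replicate 3.

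The other 25 keratins did not pass the filter on low counts, and they belong to 5 classes. They were KRT5, KRT6A and KRT6C of the basal and stress class, KRT1, KRT2, KRT3, KRT4, KRT9, KRT13, KRT76, KRT77 and KRT78 of the suprabasal class, KRT27, KRT71, KRT72 and KRT74 of the inner root sheath, KRT31, KRT32, KRT33A, KRT33B, KRT36, KRT38 and KRT39 of the hair shaft, and KRT23 and KRT24. Outside vehicle replicate 3, none of them exceeded 15 counts in a library, and 16 had at most 3 counts in every one of the other 5 libraries. Vehicle replicate 3 held the highest count of 24 of the 25, the exception being KRT39 with 15 counts in guadecitabine replicate 1, which passed the filter without vehicle replicate 3 (log2 fold change 1.38, edgeR adjusted p = 0.0656). Their counts summed to 421 in that library against 27 to 68 in the other 5. With 7.79 counts per kb over these 25 genes, vehicle replicate 3 was near the median of 7.78 for the 2782 genes of the table that had at most 1 count in both other vehicle libraries. No gene of the table had a total under 11. Those of these keratins with a sum under 11 counts over the other 5 libraries were therefore listed only through vehicle replicate 3. They include, but are not limited to, the 6 at 0 in all of those libraries. The 24 of 25, and the closeness of 7.79 to 7.78, follow in part from that selection. A count at or under 3 was taken as the floor of detection, for counting error only.

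**Figure D3:**
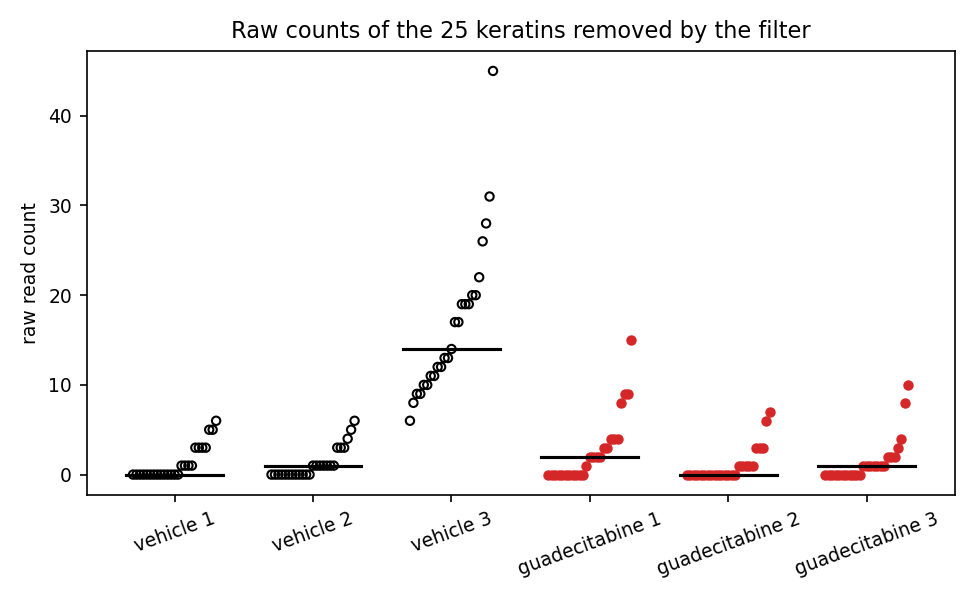
Raw counts of the 25 keratins that did not pass the filter, with 1 point per gene in each of the 6 libraries and a line at the median. The median was 14 counts in vehicle replicate 3 and 0 to 2 in each of the other libraries.

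The summed keratin level was 45441, 47537 and 40856 normalized counts per kb in vehicle and 23095, 31910 and 30077 in guadecitabine. The groups do not overlap. The means were 44610 ± 3417 and 28360 ± 4651 (SD, n = 3), 1.58-fold lower in guadecitabine, and the exact two-sided permutation test again gave its lowest value, p = 0.1. KRT8, KRT18, KRT19, KRT7 and KRT80 made up 92.0% to 95.9% of the sum in every library, so the summed level follows these 5. Type II keratins made up 52.6% ± 1.10 of the sum in vehicle and 45.7% ± 2.60 in guadecitabine (exact permutation p = 0.1). Within the sum, KRT7 went from 19.7% to 11.4%, KRT19 from 24.8% to 21.1%, KRT18 from 21.3% to 30.2% and KRT8 from 25.9% to 27.8%, with non-overlapping groups for the first 3 (exact permutation p = 0.1) and overlapping groups for KRT8 (exact permutation p = 0.3). KRT18 went from rank 3 among keratins in vehicle to rank 1 in guadecitabine, with a level of 8617 ± 1842 normalized counts per kb beside 7832 ± 990 for KRT8, a gap within their spread.

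**Figure D4:**
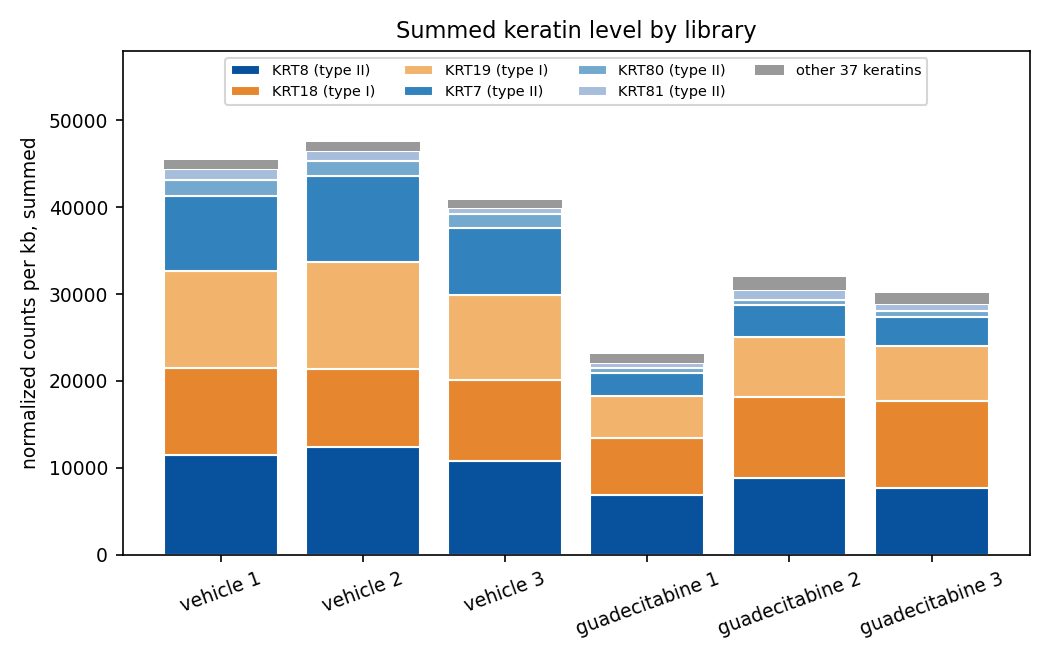
Summed normalized counts per kb of all 43 keratins in each of the 6 libraries, stacked by gene, with type II keratins in blue and type I in orange. The sum was 40856 to 47537 in vehicle and 23095 to 31910 in guadecitabine.

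Guadecitabine acts on DNA methylation, which falls on CpG sites, so promoter sequences were read as well. Methylation of keratin genes was not measured here, and its part in these changes was not tested. RefSeq promoters of GRCh38.p14, from 250 bases before to 50 bases after the start, were held for 23 of the 43 keratins. The tested keratins KRT7, KRT14, KRT15, KRT16, KRT17, KRT18, KRT19, KRT6B, KRT80, KRT81, KRT83 and KRT86 have no entry in that set. Most of the 23 did not pass the filter, and only KRT8, KRT10, KRT34, KRT79, KRT82 and KRT85 were tested. The median of the 23 was 2 CpG sites in 300 bases, against 26 among 10191 promoters of genes tested and 14 over all 35116 promoters. That median thus describes mainly keratins with low counts. KRT34 had 0 CpG sites, KRT10 had 1, KRT82 had 3, KRT85 had 7 and KRT79 had 8. Matched to GRCh37, the start of 21 of the 23 promoters lay within 100 bp of the start of the transcript counted, at 78 bp for KRT34 and 3 bp for KRT10. That of KRT8 lay 23397 bp away, so it belongs to another start of the gene and is not shown. The motif TATAAA, read on both strands, was in the 250 upstream bases of 13 of 23 keratins (56.5%), against 10.7% of all promoters. That share, too, describes mainly keratins with low counts. A match could lie anywhere in the 250 bases, and those of KRT39 and KRT82 lay outside the bases from -40 to -11. The motif is shown in capitals for KRT34, called higher, and KRT10, not called. The 30 bases printed run from -40 to -11 of the promoter start, on the minus strand. For KRT34 the counted start lies 78 bp upstream of that promoter start, so its printed bases fall inside the span counted.
KRT34 (chr17:41382317-41382346): aattaatggTATAAAaggactgcagaggaa
KRT10 (chr17:40822625-40822654): ccctctcagtaTATAAAggcttgtcactgt
A match describes letters only and shows no binding.

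Genes that work with keratins were also read from the same test, in which 19.3% of all genes were called higher and 18.4% lower (3002 and 2575 of 13296 genes without vehicle replicate 3). Of 15 other intermediate filament genes in the table, 11 were tested, with 3 called higher and 6 lower and a median log2 fold change of -0.44. INA and NEFH, neuronal filament genes, were among those higher, with INA at 1, 0 and 33 counts in vehicle and 267, 73 and 203 counts in guadecitabine, so that its log2 fold change of 4.28 was 8.25 without vehicle replicate 3. NEFH was at 3, 3 and 35 counts in vehicle and 114, 27 and 76 counts in guadecitabine. GFAP and the lamin gene LMNB1 fell by 1.32 and 1.25 on the log2 scale. Without vehicle replicate 3, 2 were called higher and 6 lower, as VIM had an adjusted p of 0.0557. Of 18 desmosome and keratin-anchoring genes tested, 1 was called higher and 7 lower (2 and 8 without vehicle replicate 3), with a median of -0.25. PPL and EVPL, plakin linkers of the cornified envelope and desmosome, fell by 2.52 and 1.28, ITGB4 of the hemidesmosome fell by 2.32, and COL17A1, its collagen, rose by 0.95, all on the log2 scale. Of 9 cornified envelope and bundling genes tested, 2 were called higher, TGM1 at 1.25 and TGM2 at 0.49 on the log2 scale, and 2 of 8 without vehicle replicate 3.

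Of 14 transcription factors tested among those known for keratin genes and epithelial identity, 6 were called higher and 1 lower, beside 19.3% and 18.4% of all genes, with a median of 0.42. TFAP2A rose by 1.20, ESRP2, a splicing regulator of epithelial identity kept in that list, by 1.13, KLF4 by 1.06 and GATA3 by 0.83, while SP1 fell by 0.49 on the log2 scale. Without vehicle replicate 3, 9 were called higher and 1 lower. Markers of other cells were read as well. Of 10 leukocyte markers 8 were in the table and 3 tested, with CD68 called higher at 1.27, and again 1 of 3 without vehicle replicate 3. The summed leukocyte level was 1700 to 1972 normalized counts per kb in vehicle and 4067 to 4255 in guadecitabine, nearly all of it CD68, whereas PTPRC and SPI1 had at most 3 counts in each library but vehicle replicate 3, with 36 and 59 counts there. The summed endothelial level was 1412 to 1737 in vehicle and 1406 to 1860 in guadecitabine, nearly all of it ESAM (log2 fold change 0.02). Of 6 endothelial markers tested, 1 was called, KDR at 1.20, and 3 of 5 were called higher without vehicle replicate 3. The part of other cells in the keratin values was not tested.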

How the data were processed

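RNA sequencing of MDA-MB-231 cells gave 3 vehicle and 3 guadecitabine libraries, grouped by their sample titles, and the replicate numbers 1 to 3 come from there. Reads were aligned by the authors to hg19 with STAR 2.3.1z, and the deposited values are raw counts of exon tags for 1 RefSeq transcript a gene, made with iRNA-seq, in a table of 17100 genes whose smallest total was 11. Read length and the handling of strand and multi-mapping reads are not given in the sources used here. The same table holds the authors' own rlog values, on the log2 scale, and DESeq2 results (mean, log2 fold change, its error, statistic, p-value and adjusted p-value), which were not used.

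The test used edgeR 4.0.16 under R 4.3.3 (TMM, filterByExpr with a minimum count of 10, quasi-likelihood test, Benjamini-Hochberg over 13322 genes, threshold 0.05), and the fit was tested on simulated data. Normalized counts are scaled to the mean library total of 17911210. Standard errors derive from the F statistic. Alternatives were the DESeq2 1.42.0 Wald test, edgeR with DESeq2 size factors or with library totals only, and other filters. Further ones were a fold threshold of 1.5, a replicate block and each library left out. No pair of libraries held identical counts. Exon stretches of 50 bases were counted over GRCh37, the assembly of hg19, with GENCODE models, and RefSeq promoters were placed on it by sequence. Every keratin in the table was accounted for: those tested are named with values, as are the tested cell line markers, and of each other list at most 4 called genes with the largest change. SP1, ESR1, PGR, PTPRC and SPI1 were named after their values were seen. The keratins and the other gene lists were chosen with earlier results of these data known.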

Additional observations from a re-analysis of the deposited data

How the results depend on the processing

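With a fold threshold of 1.5 in the test, 818 genes were called higher and 696 lower, and 2 keratins higher and 2 lower, as KRT8, KRT15, KRT19 and KRT6B lost their calls. Leaving out 1 library gave 1706 to 3002 genes higher and 1629 to 2575 lower, the low ends without guadecitabine replicate 3 and the high ends without vehicle replicate 3, and gave 2 to 5 keratins higher and 4 to 6 lower; 5 were called without vehicle replicate 3, adding KRT14 and KRT79. With the replicate block, 2424 genes were higher and 2230 lower, and 4 keratins higher, with KRT14 added (log2 fold change 2.84, adjusted p = 0.0324), and 5 lower. The correlations of same-numbered libraries were -0.05, 0.049 and -0.037, and those of the other pairs ran from -0.061 to 0.063. So few values cannot show whether the numbers pair the libraries. The Wald test of DESeq2 called 2716 genes higher and 2615 lower, with 3 keratins higher and 5 lower. KRT7, KRT17, KRT34 and KRT80 were called under all 13 alternatives. Of 230 values of single keratins under alternatives, 7 changed sign, all in keratins called under neither setting. KRT16 (-0.09) was 0.29 with the replicate block and 0.04 without the filter, and leaving out 1 library gave -0.52 to 1.26 for it, -0.11 to 0.28 for KRT85 (0.08) and -0.26 to 0.03 for KRT18 (-0.13). Low counts limit KRT14, KRT16 and KRT79, and the cause of the changed calls was not tested.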

Other observations

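The ratio of vimentin to keratin was also read, a measure chosen after the values of both were seen. VIM over the summed keratin level, both in normalized counts per kb, was 0.823, 0.781 and 0.938 in the vehicle libraries and 1.93, 1.38 and 1.77 in the guadecitabine libraries. The means were 0.847 ± 0.0809 and 1.69 ± 0.287 (SD, n = 3), with no overlap between the groups and an exact two-sided permutation p of 0.1, the smallest that 6 libraries allow. Every guadecitabine library was above every vehicle library for VIM and below every one for the summed keratin level. The separation of the ratio and its p were thus fixed by those values and add no support. VIM itself had a log2 fold change of 0.33 (edgeR adjusted p = 0.0258, or 0.0557 without vehicle replicate 3), with a mean level of 37619 ± 609 normalized counts per kb in vehicle and 47256 ± 5191 in guadecitabine. CD44, a surface glycoprotein of mesenchymal and stem-like breast cancer cells, rose by 1.18 on the log2 scale. AXL, also a marker of this line, fell by 1.27, and EGFR (0.25) was not called, so these markers did not move together.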
